A study of Mus musculus with 2 samples.

Results

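Cd34-high multipotent progenitors with high Fos were 343 of the 11214 cells kept in 2 libraries of single-cell RNA sequencing from the bone marrow of mice, 218 of 4839 in the Listeria library and 125 of 6375 in the naive library. They were chosen on raw UMI counts, where a UMI is a random tag that lets each captured transcript be counted once. A barcode was kept as a cell at 2500 UMIs or more, 500 genes or more and at most 10% mitochondrial UMIs. A kept cell entered the progenitor gate with 2 or more UMIs of Cd34, the sialomucin of progenitor surfaces, and 0 of Dntt, the DNA polymerase of lymphoid precursors. It also had fewer than 5 UMIs over the stem cell genes Procr, Mecom, Hlf, Mllt3, Fgd5, Ctnnal1, Slamf1 and Hoxb5 and fewer than 5 over the platelet genes Pf4, Itga2b, Cavin2 and Gp9. At most 3 UMIs were allowed over the B-lineage genes Cd79a and Vpreb3, fewer than 20 over the granule enzyme genes Mpo, Elane, Prtn3 and Ctsg, and fewer than 3 of the antiviral gene Rsad2. Of the 1411 gated cells, those with 5 or more Fos UMIs are called Fos-high and the other 1068 Fos-low. Fos and the gate genes were measured by the rule itself, so their levels are descriptions.

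The Listeria library came from wild-type C57BL/6J mice sampled 6 weeks after they were challenged with the bacterium Listeria monocytogenes, and the naive library from wild-type C57BL/6J mice that received no treatment. Each group is 1 library, labelled as haematopoietic stem cells (HSCs), and the number of mice behind a library is not given in the sources used here. Both groups carry a stated age of 6 to 8 weeks. Which day that age refers to, the infection or the harvest, is unknown, so age and infection cannot be told apart. The names under which the data were deposited mention a knockout for the Listeria library and wild type for the naive one. Grouping followed the labels, which give the same genotype for both, so genotype and infection cannot be told apart either.

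Multipotent progenitors descend from HSCs and have left the stem cell state, but still give rise to both lymphoid and myeloid blood cells. In mouse marrow they carry Cd34, gain the cytokine receptor Flt3 and the adhesion protein Cd48, and divide more than HSCs do. Fos encodes an AP-1 subunit, part of a dimeric transcription factor, and is an immediate early gene, transcribed within minutes of a growth factor, a stress or the handling of tissue, before any new protein is made. Immediate early genes encode transcription factors (AP-1 subunits, Egr, Klf and Nr4a factors) and proteins that end the response again, such as Dusp1, a phosphatase of MAP kinases, and Zfp36, which marks short-lived RNAs for decay.

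The Listeria library held 43895966 UMIs and the naive library 64619150. Fos-high members had a median of 7928.5 UMIs (3862 to 16405) in the Listeria library and 7348 UMIs (2903 to 18410) in the naive library, and their medians of mitochondrial UMIs were 4.11% and 4.23%. After thinning each member to 2500 UMIs, the median number of genes was 1228 in Listeria and 1183 in naive members. The kept cells of the libraries shared 14 barcodes, none of them Fos-high in both, and 2 members had a barcode that was also a kept cell of the other library. With 1 library per group, no difference between libraries has a replicate check and no p-value is given. Every interval is a 95% interval for counting error alone, and a difference is one between 2 libraries.

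The cells carried the markers of their name, of which Flt3 and Egr1 were also found at similar levels in the stem cell gate compared further below. Levels were summed over the cells of a group and scaled to 1e+06 UMIs (CPM). Cd34, on which they were gated, was at 466 CPM in Listeria and 484 CPM in naive members. Flt3 was at 89.2 CPM in Listeria and 89.6 CPM in naive members, and 47.2% and 45.6% of members had a Flt3 UMI. Thinned to 2500 UMIs, 21.1% of Listeria and 22.4% of naive members still had one. Free RNA gives stray UMIs, and in the megakaryocyte-lineage cells (those with 5 or more UMIs over the platelet genes of the gate) the thinned Flt3 shares were 1.06% in the Listeria and 3.16% in the naive library, at median depths of 10607 and 10103 UMIs. The Flt3 share of members thus lay above that background in both libraries. Fos-high cells of the stem cell gate had Flt3 at 91.4 CPM in the Listeria and 68.1 CPM in the naive library. Cd48 was at 67.3 CPM in Listeria and 48 CPM in naive members, with thinned shares of 10.6% and 14.4%, against 0.531% and 3.48% in the megakaryocyte-lineage cells. B-lineage cells (over 3 UMIs of Cd79a and Vpreb3), which carry Cd48 as well, had thinned Cd48 shares of 9.03% and 10.5%. Kit, the stem cell factor receptor, was found in 89.0% of Listeria and 88.0% of naive members. Egr1, a zinc finger factor induced together with Fos, had a UMI in 98.2% of Listeria and 97.6% of naive members. Egr1 was at 1407 CPM in Listeria and 1334 CPM in naive members, and at 1598 and 1203 CPM in Fos-high cells of the stem cell gate. Cd48 was lower in the latter than in members, at 31.3 CPM in the Listeria and 29.5 CPM in the naive library.

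Markers of other lineages were measured as summed levels. The 12 B-lineage markers summed to 29.0 CPM in Listeria members, with 5 of them at 0, and to 66.1 CPM in naive members, with 3 at 0. For 12 T and NK cell markers the sums were 235 CPM (3 at 0) and 211 CPM (7 at 0), most of it Nkg7 at 191 and 192 CPM, a granule gene of cytotoxic cells. For 12 neutrophil and monocyte markers the sums were 115 and 103 CPM, with 1 and 3 at 0. The 12 dendritic cell markers, of which progenitors share Flt3, summed to 599 CPM in Listeria and 484 CPM in naive members, with 4 at 0 in each. The 16 megakaryocyte and platelet markers summed to 574 and 638 CPM, with 3 at 0 in each, and the 18 erythroid and basophil markers to 672 and 852 CPM, with 5 and 7 at 0. The sums of these last 3 lists were above those of the first 3 in both libraries. The part of such transcripts in the results below was not tested. A naive member held 1200 UMIs of antibody and plasma cell genes, against at most 14 in the other naive members and 9 in Listeria members. A Listeria member held 69 UMIs of neutrophil granule genes, against at most 6 in the others. Values that rest on those cells are given as such below. No doublet caller was run, and the deepest member held 18410 UMIs.

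A larger share of gated progenitors was Fos-high in the Listeria library. It was 31.3% (27.9% to 34.9%, 218 of 696 cells) in the Listeria and 17.5% (14.8% to 20.5%, 125 of 715 cells) in the naive library, and the exact Clopper-Pearson intervals did not overlap. A raw limit on Fos favours deep cells, and gated progenitors had a median of 7456 UMIs in the Listeria and 6811 UMIs in the naive library. With every cell thinned to 2500 UMIs, 30.6% (27.2% to 34.2%) of Listeria and 20.8% (17.9% to 24.0%) of naive progenitors had 2 or more Fos UMIs. With a limit of 5 Fos UMIs per 10000 UMIs of the cell, the shares were 33.0% (29.6% to 36.7%) and 23.1% (20.04% to 26.3%). The higher share in the Listeria library was seen on all 3 scales. Fos was also in the free RNA, at 435 CPM in the Listeria and 375 CPM in the naive library. By haemoglobin, free RNA made up 0.931% of the UMIs of Listeria and 1.88% of naive Fos-high cells, and 1.16% and 1.38% of Fos-low cells. The part of free Fos RNA in these shares was not tested. Shares of cells with any Fos differed less between the libraries, and their direction depended on thinning. Thinned shares of cells with at least 1 Fos UMI were 42.8% (39.1% to 46.6%) in Listeria and 40.1% (36.5% to 43.8%) in naive progenitors, with overlapping intervals. Cells with no Fos UMI before thinning formed 45.5% (41.8% to 49.3%) of Listeria and 38.9% (35.3% to 42.6%) of naive progenitors.

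**Figure D1:**
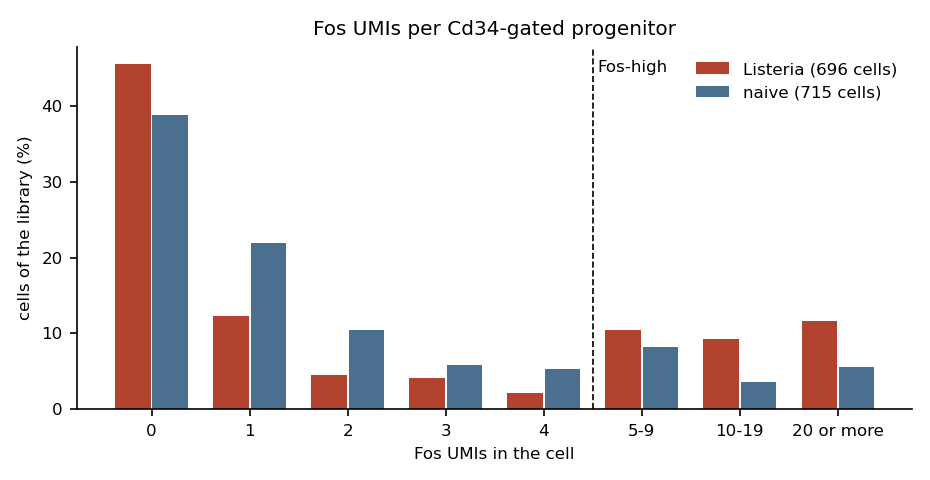
Share of Cd34-gated progenitors (vertical axis, % of the library's gated cells) by the number of Fos UMIs in the cell (horizontal axis, single values from 0 to 4, then 5 to 9, 10 to 19, and 20 or more), for the Listeria (red, 696 cells) and naive (blue, 715 cells) libraries. The Listeria bars are taller at 0 and in each of the 3 ranges from 5 UMIs, and the naive bars are taller from 1 to 4 UMIs; the dashed line marks the Fos-high limit of 5 UMIs.

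Among members, Fos ranged from 5 to 88 UMIs per cell in the Listeria library, with quartiles at 8, 15 and 26, and from 5 to 77 in the naive library, with quartiles at 7, 10 and 23. Per 10000 UMIs of the cell, the median was 19.2 in Listeria and 15.8 in naive members. Members with 20 or more Fos UMIs numbered 81 in the Listeria and 40 in the naive library. Cells at the edge of the rule were few. In the Listeria library 18 cells had 5 Fos UMIs and 15 had 4, and in the naive library 17 had 5 and 38 had 4. Egr1 was at 973 CPM in Listeria cells with 5 Fos UMIs and at 934 CPM in those with 4, and at 829 CPM in naive cells with 5 and 934 CPM in those with 4. For the AP-1 subunit Fosb these levels were 2998 and 2327 CPM in the Listeria library and 2366 and 2914 CPM in the naive library. The immediate early genes thus showed no common step at the limit of 5 UMIs, which divides a continuous range.

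Other gates of the same libraries were set beside the progenitors with all cells thinned to 2500 UMIs and Fos at 2 or more. In the stem cell gate (the same gate with 5 or more UMIs over the stem cell genes), the shares were 43.1% (38.7% to 47.5%) in the Listeria and 21.2% (17.5% to 25.3%) in the naive library. Among Dntt-positive cells they were 40.3% (34.5% to 46.3%) and 23.7% (20.6% to 27.0%). The naive shares of these 3 gates overlapped in their intervals, while the Listeria shares of the stem cell gate and of the Dntt-positive cells lay above that of the progenitors. Megakaryocyte-lineage cells had shares of 34.2% and 33.2%, and B-lineage cells 17.6% and 16.4%, each pair with overlapping intervals. Granule enzyme cells (20 or more UMIs over those enzymes) were at 19.7% of 71 Listeria and 8.77% of 57 naive cells, with overlapping intervals. Over all kept cells the shares were 28.1% and 23.9%.

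**Figure D2:**
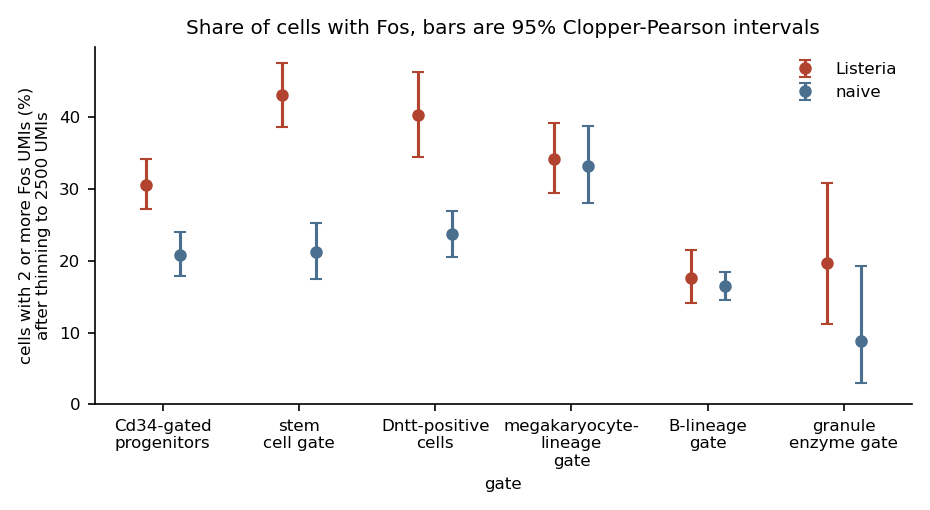
Share of cells with 2 or more Fos UMIs after thinning to 2500 UMIs (vertical axis, %) in 6 gates, with exact 95% Clopper-Pearson intervals for counting error, for the Listeria (red) and naive (blue) libraries. The Listeria share lies above the naive share without overlap in Cd34-gated progenitors (30.6% and 20.8%), the stem cell gate and Dntt-positive cells, and the intervals overlap in the other 3 gates.

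Within the members, the genes that followed Fos most closely included partners of Fos, feedback genes of the same response and Egr1. Ranked by Spearman correlation with Fos per 10000 UMIs across the 218 Listeria members, among 4038 genes with a UMI in at least 25% of them, the first 5 were Zfp36 (0.56), Dusp1 (0.50), Egr1 (0.44), the AP-1 subunit Jun (0.37) and its relative Junb (0.35). Across the 125 naive members, among 3459 genes, they were Dusp1 (0.56), Zfp36 (0.54), Jun (0.43), Egr1 (0.39) and Gem, a small GTP-binding protein (0.39). Cells of a correlation share a library and differ in depth, and no test was made. In levels, Dusp1 was at 208, 293 and 649 CPM in Listeria members with 5 to 9, 10 to 19 and 20 or more Fos UMIs (73, 64 and 81 cells), and at 155, 421 and 645 CPM in the naive members of those ranges (59, 26 and 40 cells). Zfp36 was at 468, 616 and 1155 CPM in the Listeria library and at 418, 623 and 1122 CPM in the naive library. Both genes were highest at the top of the Fos range in each library. Jun covered a narrower range, at 4489.9, 5307 and 6098 CPM in Listeria and 4553, 6245 and 7428 CPM in naive members. Nr4a1, an orphan nuclear receptor of the same response, was lowest at the top of the range, at 852, 872 and 631 CPM in Listeria and 1023, 1107 and 840 CPM in naive members. Atf3, a stress-induced AP-1 partner, was at 144, 367 and 265 CPM in Listeria members and at 434, 329 and 327 CPM in naive members.

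The 170 bases before the start of Fos and of 4 genes that were among the most Fos-like or the highest in Fos-high over Fos-low cells are shown on the gene's own strand, from the promoter table of RefSeq on GRCm38.p6. They were picked because each holds at least 1 of the motifs searched, and Jun, among the 5 most Fos-like genes of both libraries, holds none and is not shown. The intervals are chr12:85473720-85473889 (plus strand) for Fos, chr7:28379229-28379398 (minus strand) for Zfp36, chr17:26508473-26508642 (minus strand) for Dusp1, chr1:134079156-134079325 (minus strand) for Btg2 and chr8:84978749-84978918 (minus strand) for Junb. Capitals mark TGACG, the core of the cyclic AMP response element that CREB proteins bind, its full form TGACGTCA, or the CArG box of serum response factor.
Fos: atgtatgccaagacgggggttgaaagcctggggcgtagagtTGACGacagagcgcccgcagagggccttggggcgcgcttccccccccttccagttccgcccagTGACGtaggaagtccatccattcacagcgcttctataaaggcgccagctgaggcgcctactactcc
Zfp36: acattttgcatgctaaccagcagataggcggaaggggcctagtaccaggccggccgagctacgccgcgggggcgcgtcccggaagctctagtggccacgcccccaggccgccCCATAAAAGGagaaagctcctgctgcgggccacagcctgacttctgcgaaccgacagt
Dusp1: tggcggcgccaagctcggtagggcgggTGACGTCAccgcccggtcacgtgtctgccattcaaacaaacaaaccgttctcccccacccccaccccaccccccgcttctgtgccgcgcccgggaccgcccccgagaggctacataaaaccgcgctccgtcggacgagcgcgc
Btg2: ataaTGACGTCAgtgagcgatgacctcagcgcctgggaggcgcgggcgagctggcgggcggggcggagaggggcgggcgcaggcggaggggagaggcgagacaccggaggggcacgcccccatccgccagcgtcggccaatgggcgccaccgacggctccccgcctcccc
Junb: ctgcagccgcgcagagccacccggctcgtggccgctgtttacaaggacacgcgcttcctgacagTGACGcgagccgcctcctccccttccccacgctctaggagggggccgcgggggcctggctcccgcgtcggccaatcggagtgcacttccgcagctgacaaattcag

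The motifs were searched on both strands in the 250 bases before the start, for 15 genes: Fos, the 12 genes highest in Fos-high over Fos-low progenitors, and the most Fos-like genes. Of these, 11 were matched in the table. TGACG was found in 6 of the 11, including the 2 with TGACGTCA, against 17.8% of the table's 32851 promoters, and TGACGTCA in 2 of 11, against 1.55%. The CArG box was found in 1 of 11, against 1.47%, and the AP-1 site TGANTCA in 0 of 11, against 6.75%. These are matches of letters in a short window and say nothing of binding in these cells.

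Fos-high and Fos-low progenitors of the same library differed in much of the immediate early programme. These cells were parted on Fos, so the values that follow are descriptions only. Of 5735 genes with a mean of at least 20 CPM over the 4 groups, 15.6% were more than 1.5-fold higher and 11.9% more than 1.5-fold lower in Fos-high cells of the Listeria library, and 8.70% and 7.11% in the naive library. In both libraries at once, 5.46% (313 genes) were higher and 4.10% (235 genes) lower. That balance depended on scaling, with 181 higher and 399 lower under TMM factors and 196 and 368 under median-ratio factors. These moved the median log2 ratio of all genes to -0.12 and -0.10, against 0.02 without them.

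Klf2, a Krueppel-like factor known for keeping T cells quiescent, was at 1731 CPM in Fos-high and 224 CPM in Fos-low Listeria progenitors, and at 1503 and 348 CPM in naive ones. Dusp1 was at 407 and 53.3 CPM in the Listeria library and at 379 and 88.3 CPM in the naive library. Egr1 was at 1407 and 244 CPM in the Listeria and at 1334 and 340 CPM in the naive library. The log2 ratios of these 3 genes ran from 1.97 to 2.95. Jun was at 5365 and 1288 CPM in the Listeria and at 5888 and 1759 CPM in the naive library. The antiproliferative gene Btg2 was at 589 and 128 CPM in the Listeria and at 759 and 240 CPM in the naive library. Rhob, a GTPase of endosomes, Myc, the growth factor-induced regulator, Lyl1, a haematopoietic transcription factor, Cd69, an early activation antigen, Fam111a, a protease of replicating cells, and the chemokine Ccl3 completed the 12 highest together with Zfp36. Of the Ccl3 UMIs, 20.6% of those of Listeria and 21.3% of those of naive members lay in 1 cell. The 12 lowest included Lmna, the nuclear lamin A gene, at 53.6 CPM in Fos-high and 249 CPM in Fos-low Listeria progenitors and at 99.2 and 214 CPM in naive ones. Also among them were N4bp3, Stk40, Luzp1, Ehd1, Fam110c, Itgav, Traf1, Rasa4, Anxa2, the centromere histone Cenpa and Cish, a feedback inhibitor of cytokine signalling. Cish was at 35.0 and 91.9 CPM in the Listeria and at 39.5 and 95.1 CPM in the naive library.

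Not every immediate early family was high in Fos-high cells. Of 8 measured AP-1 subunits beside Fos, 5 were past 1.5-fold higher in the Listeria and 4 in the naive library, while Mafk was lower in the naive library alone, at 98.5 CPM in Fos-high and 132 CPM in Fos-low Listeria progenitors and 121 and 182 CPM in naive ones. In the Egr and Nr4a list 2 of 6 were higher in each library, Egr1 and Nr4a1. Nr4a3 was lower in both, at 6.02 CPM in Fos-high and 20.8 CPM in Fos-low Listeria progenitors and at 11.7 and 41.8 CPM in naive ones. Nab1, a corepressor that holds Egr1 back, was at 56.3 and 116 CPM in the Listeria and at 45.9 and 70.9 CPM in the naive library. Among 14 feedback inhibitors of MAP kinase and RNA stability, 8 were higher in each library, and 2 in the Listeria and 3 in the naive library were lower, Cish among both. NF-kB genes, another family of rapid signalling, had 2 of 11 higher and 5 lower in each library, with Rel at 182 CPM in Fos-high and 274 CPM in Fos-low Listeria progenitors and at 276 and 363 CPM in naive ones. MPP markers outside the gate had medians of 0.63 in the Listeria and 0.38 in the naive library, with 10 and 4 of 17 higher and 1 lower in each. Sox4, a factor of early progenitors, was at 665 CPM in Fos-high and 303 CPM in Fos-low Listeria progenitors and at 670 and 474 CPM in naive ones.

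Many genes of DNA replication were higher in Fos-high than in Fos-low cells of both libraries. Of 21 measured S phase genes 11 were past 1.5-fold higher in the Listeria and 15 in the naive library, with 0 lower, and medians of 0.65 and 0.99. Mcm3, a subunit of the replicative helicase, was at 178 CPM in Fos-high and 90.8 CPM in Fos-low Listeria progenitors and at 111 and 63.8 CPM in naive ones. Counted per cell after thinning, 72.0% (65.6% to 77.9%) of Listeria and 72.0% (63.3% to 79.7%) of naive Fos-high cells had 2 or more S phase UMIs, against 56.7% (52.1% to 61.2%) and 54.1% (49.95% to 58.1%) of Fos-low cells. Unthinned shares were 94.95% and 94.4% of Fos-high and 93.7% and 91.5% of Fos-low cells. The dividing-cell genes Mki67 and Top2a had a UMI in 22.5% (17.1% to 28.6%) of Listeria and 17.6% (11.4% to 25.4%) of naive Fos-high cells after thinning, against 21.1% and 13.4% of Fos-low cells and 84.3% and 79.3% of the B-lineage cells. Their intervals overlapped between Fos-high and Fos-low cells in each library. At least 2 UMIs of the G2 and M phase list were found after thinning in 74.8% and 70.4% of Fos-high and in 74.5% and 77.3% of Fos-low cells. Over all kept cells the shares were 74.9% and 78.2%, so this count marks most cells and cannot separate groups by division. From the mean log2 ratio of both libraries, the list had a Fos-high over Fos-low median of 0.40, and 0.08 to 0.61 over the alternatives.

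Fos-high cells were next compared between the libraries. Of 5886 genes with a mean of at least 20 CPM, 452 (7.68%) were more than 1.5-fold higher and 193 (3.28%) more than 1.5-fold lower in the Listeria library. The median log2 ratio of all genes was 0.07. Under median-ratio factors the counts were 275 higher and 307 lower and the median -0.03, and under TMM factors 340 and 240 with a median of 0.01. Most calls were at low levels, where counting error is wide. Of the 452 higher genes, 341 had a mean under 50 CPM, where the median half-width of an interval was 0.70 on the log2 scale, against 0.092 for genes above 500 CPM. In Fos-low cells 335 of 5543 genes (6.04%) were higher and 182 (3.28%) lower in the Listeria library, with a median of 0.08.

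**Figure D3:**
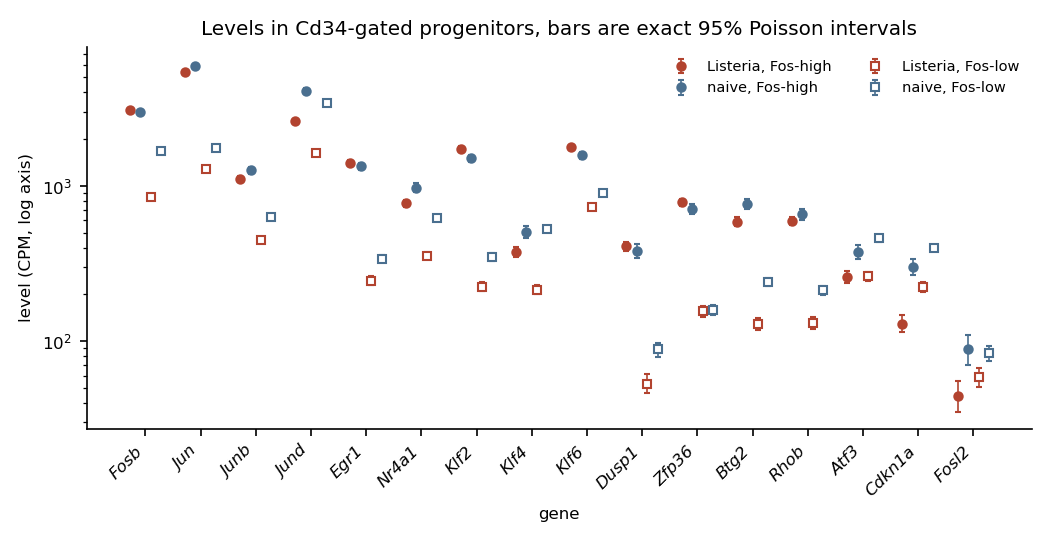
Levels (CPM, log axis) of 16 genes in Fos-high (filled) and Fos-low (open) Cd34-gated progenitors of the Listeria (red) and naive (blue) libraries, with exact 95% Poisson intervals. Fosb, Egr1, Klf2, Dusp1 and Zfp36 lie close together in Fos-high cells of both libraries, while Fosb, Klf2 and Dusp1 are lower in Listeria than in naive Fos-low cells, and Jund is lower in the Listeria library in both classes.

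The transcription factor genes Fosb, Egr1 and Klf2 and the phosphatase gene Dusp1 had lower levels in the Listeria library among Fos-low cells but not among Fos-high cells. Fosb (chromosome 7, 19302696 to 19310051 on mm10) was at 3057 CPM in Listeria and 2967 CPM in naive Fos-high cells, a log2 ratio of 0.04 (-0.02 to 0.11). In Fos-low cells it was at 842 CPM in the Listeria and 1678 CPM in the naive library, a log2 ratio of -0.995 (-1.06 to -0.93). The Fos-high ratio minus the Fos-low ratio was 1.04 (0.95 to 1.13), by an approximate interval. The classes were parted on Fos, which these genes follow, so such contrasts of the classes are descriptions only. Egr1 had 0.08 (-0.02 to 0.18) in Fos-high and -0.48 (-0.60 to -0.35) in Fos-low cells. Klf2 had 0.20 (0.11 to 0.30) and -0.64 (-0.76 to -0.51), with an interval above 0 in Fos-high cells, and Dusp1 had 0.10 (-0.08 to 0.29) and -0.73 (-0.99 to -0.47). Fos itself, which the rule limits in both classes, was at 2396 CPM in Listeria and 2163 CPM in naive Fos-high cells and at 79.8 and 143 CPM in Fos-low cells. Fos-low cells of the libraries were not alike in Fos, and 317 of 478 Listeria but 278 of 590 naive ones had no Fos UMI. Within Fos-low cells with no Fos UMI, Fosb was at 412 CPM in the Listeria and 1420.1 CPM in the naive library, a log2 ratio of -1.78, and within those with 1 to 4 Fos UMIs at 1638 and 1896 CPM, a log2 ratio of -0.21. Klf2 had -1.88 in cells with no Fos UMI and 0.17 (0.03 to 0.31) in those with 1 to 4. Egr1 had -1.24 and 0.25 (0.10 to 0.39), and Dusp1 -1.14 and -0.19 (-0.56 to 0.17). For each of these genes the ratio was lower in cells with no Fos UMI than in those with 1 to 4. In the latter it was above 0 for Klf2 and Egr1.

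Jund and Maff were the AP-1 subunits past 1.5-fold lower in the Listeria library in both Fos-high and Fos-low cells. Jund, the subunit made without stimulation (chromosome 8, 70698949 to 70700616), was at 2605 CPM in Listeria and 4098 CPM in naive Fos-high cells, a log2 ratio of -0.65 (-0.72 to -0.59), and at 1614 and 3426 CPM in Fos-low cells, -1.09 (-1.13 to -1.04). It was lower in the Listeria library in each Fos range of the members, with log2 ratios of -0.56, -0.90 and -0.62 in cells with 5 to 9, 10 to 19 and 20 or more Fos UMIs. Fosl2, a Fos relative, was at 44.3 CPM in Listeria and 88.5 CPM in naive Fos-high cells, -0.999 (-1.46 to -0.54), and at 58.4 and 83.4 CPM in Fos-low cells, -0.51, within the limit. The small Maf protein gene Maff was at 45.4 and 87.5 CPM in Fos-high cells, -0.95 (-1.40 to -0.49), and at 26.5 and 46.5 CPM in Fos-low cells, -0.81. Of 8 measured AP-1 subunits, these 3 were past 1.5-fold lower and 0 were higher in Fos-high cells, and 4 were lower in Fos-low cells, Fosb, Jund, Maff and Atf3. The median of the list was -0.42 in Fos-high and -0.66 in Fos-low cells. Atf3 was at 258 CPM in Listeria and 377 CPM in naive Fos-high cells, -0.55 (-0.75 to -0.34), inside the fold limit. Jun (-0.13) and Junb (-0.17) had intervals below 0 but small ratios.

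The remaining families showed both patterns. In the Egr and Nr4a list 1 of 5 was higher, the corepressor Nab2 at 27.4 CPM in Listeria and 18.1 CPM in naive Fos-high cells, with an interval that held 0. Nr4a2 was at 88.6 and 87.5 CPM in Fos-high cells, against 78.7 and 137 CPM in Fos-low cells. No Klf factor of 8 passed the limit in Fos-high cells, whereas 3 were lower in Fos-low cells, among them Klf4, a factor of monocyte differentiation. Klf4 was at 377 CPM in Listeria and 502 CPM in naive Fos-high cells (-0.41), and at 214 and 530 CPM in Fos-low cells (-1.30). Of 21 further immediate early genes 3 were lower and 0 higher in Fos-high cells. These were the stress kinase gene Plk2, at 31.7 CPM in Listeria and 73.6 CPM in naive cells (-1.21), and Id3 and Id2, inhibitors of E proteins, at 39.9 against 77.9 CPM (-0.96) and 14.2 against 35.2 CPM (-1.31). Rgs1, which shortens signalling through G proteins, went the other way between the classes, at 1325 CPM in Listeria and 1474 CPM in naive Fos-high cells (-0.15) and at 842 and 661 CPM in Fos-low cells (0.35). Among 14 feedback inhibitors, Socs3, which ends cytokine signalling, was lower at 58.5 CPM in Listeria and 107 CPM in naive Fos-high cells (-0.87, -1.27 to -0.46). Dusp16, another phosphatase gene, was higher at 33.4 and 18.1 CPM (0.88, 0.09 to 1.75). The other 12 stayed within 1.5-fold, Zfp36 among them at 782 and 706 CPM.

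**Figure D4:**
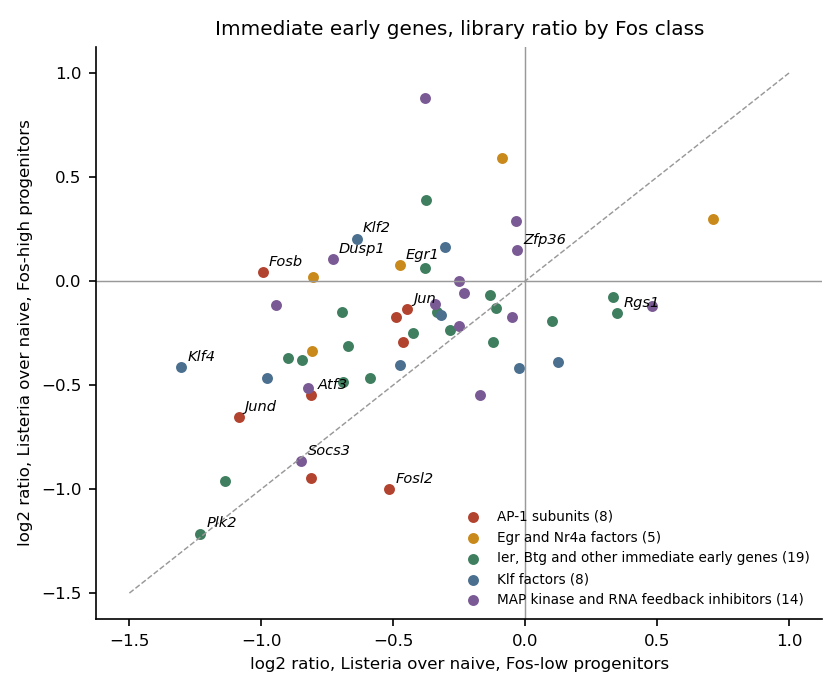
Log2 ratio of the Listeria over the naive library in Fos-high progenitors (vertical axis) against the same ratio in Fos-low progenitors (horizontal axis), for genes of 5 immediate early lists with a mean of at least 20 CPM in both classes, Fos left out; the dashed line marks equal ratios. Fosb, Klf2, Dusp1 and Egr1 lie between 0.04 and 0.20 in Fos-high cells and below 0 in Fos-low cells, Jund and Plk2 lie below 0 in both, and Rgs1 lies below 0 in Fos-high and above 0 in Fos-low cells.

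Several genes that hold back the cell cycle were lower in Fos-high cells of the Listeria library. Of 10 measured genes of the p53 response and cell cycle brakes 5 were past 1.5-fold lower and 0 higher, with a median of -0.60. Cdkn1a, the p21 inhibitor of cyclin-dependent kinases (chromosome 17, 29090976 to 29100727), was at 129.6 CPM in Listeria and 299.7 CPM in naive Fos-high cells, a log2 ratio of -1.21 (-1.46 to -0.95). Gadd45b, a growth arrest and stress gene, was at 136 and 276 CPM (-1.02), and its relative Gadd45g at 15.9 and 49.1 CPM (-1.63). Rgcc, a regulator of the cell cycle, was at 303 CPM in Listeria and 470.4 CPM in naive cells (-0.63), and Cdkn1c was the fifth of the list. In Fos-low cells 3 of 10 were lower, with a median of -0.10. There Rgcc had -1.28 and Cdkn1a -0.83.

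A minority of replication and division genes passed the limit between the libraries. Of 22 measured S phase genes 5 were higher and 0 lower in Listeria Fos-high cells, with a median of 0.31, and 8 of 18 in Fos-low cells, with a median of 0.54. The helicase subunit gene Mcm6 (chromosome 1, 128331590 to 128359664) was at 144 CPM in Listeria and 64.0 CPM in naive Fos-high cells, 1.17 (0.76 to 1.60), and Mcm3 had 0.68. Of 12 G2 and M phase genes 4 were higher and 0 lower, with a median of 0.45. Top2a, which untangles replicated DNA, was at 126 and 78.9 CPM (0.67). Leaving out cells with an Mki67 or Top2a UMI removes all Top2a UMIs, so that alternative gives no Top2a level. The per-cell shares with S phase UMIs were the same in both libraries, as given above. Ccnd2, a D-type cyclin, was at 236 CPM in Listeria and 150.4 CPM in naive Fos-high cells (0.65). Ccnd1 was at 44.9 and 28.8 CPM in Fos-high cells, 0.64 with an interval that held 0, and at 28.7 and 49.7 CPM in Fos-low cells, -0.79 (-1.15 to -0.45).

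The 12 genes highest in Listeria over naive Fos-high cells by the naming rule had varied roles, and 3 of them encode subunits of cytochrome c oxidase or ATP synthase. Among these, Cox7b (173 CPM in Listeria and 36.3 CPM in naive Fos-high cells, 2.25) and Cox6a1 (131 and 39.5 CPM, 1.73) encode subunits of cytochrome c oxidase. Hsph1, a heat shock chaperone, was at 53.6 and 11.7 CPM (2.19, 1.29 to 3.24), and Tmem258, a subunit of the enzyme that adds glycans to proteins, at 102 and 25.6 CPM (1.99). Atp5o, a subunit of ATP synthase whose symbol stands on more than 1 gene identifier in the files, had 1.37 for the identifier ENSMUSG00000022956. Pole4, Mcm6, Plp2, Ilk, Srm, Psmc4 and Cwc15 made up the rest, with log2 ratios from 0.99 to 1.20. In Fos-low cells Cox7b had 1.53, Cox6a1 1.72, Tmem258 1.57, Atp5o 1.40 and Plp2 1.26, all past the limit, whereas Hsph1 had 0.42 and the DNA polymerase subunit gene Pole4 0.09. In the heat shock list 3 of 11 were higher in Fos-high cells and 0 lower, Hsph1, Hspd1 (376 CPM in Listeria and 209 CPM in naive cells, 0.85) and Hspa1a (34.5 and 12.8 CPM, 1.43), with a list median of 0.18. In the glycolysis list 3 of 13 were higher and 0 lower, among them Gapdh at 938 and 602 CPM (0.64).

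The 12 lowest in the Listeria library beside Cdkn1a, Gadd45b, Plk2, Fosl2, Maff and Id3 were Hist1h4h, Rnf19b, Apoe, Fam212a, Grasp and Lmna. Hist1h4h, a histone H4 gene, was at 27.4 CPM in Listeria and 101 CPM in naive Fos-high cells, -1.89 (-2.41 to -1.38), and at 34.9 and 69.2 CPM in Fos-low cells. Apoe, the lipoprotein that carries cholesterol between cells, was at 288 and 559 CPM in Fos-high cells, -0.96 (-1.14 to -0.78), and at 308 and 312 CPM in Fos-low cells. Its naive level was thus higher in Fos-high cells than in all 3 other groups. Lmna was at 53.6 and 99.2 CPM (-0.89), but had 0.24 with cells thinned to 2500 UMIs. Rnf19b had -1.07, Fam212a -0.93 and Grasp -0.93.

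Interferon response genes were near level. Of 12 type I interferon response genes 0 were higher and 1 lower, Xaf1, with a median of -0.01, against a median of -0.35 in Fos-low cells. Ifitm1, which hinders virus entry, was at 444 CPM in Listeria and 484 CPM in naive Fos-high cells and at 295 and 502 CPM in Fos-low cells. In the interferon gamma and MHC class II list 3 of 13 were higher and 0 lower, all of them class II genes, with a median of 0.23. H2-Ab1 was at 90.8 and 46.9 CPM in Fos-high cells, H2-Aa at 56.3 and 23.5 CPM and H2-Eb1 at 34.5 and 13.9 CPM. A single cell held 19.3% of the H2-Ab1, 24.3% of the H2-Aa and 34.9% of the H2-Eb1 UMIs of Listeria members and 22.7%, 63.6% and 69.2% of those of naive members. The part of dendritic or B cells in these values was not tested. The dendritic cell marker sums given above include H2-Aa and H2-Ab1. Of 12 MHC class I genes 1 was higher, the peptide-loading gene Tapbp, with a median of 0.01. NF-kB genes had 3 of 10 lower, Rel (182 CPM in Listeria and 276 CPM in naive cells), Relb and Nfkbie, and 1 higher, Nfkbib, with a median of -0.37.

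Priming towards single lineages was near level between the libraries. The 17 MPP markers outside the gate had a median of -0.04 with 0 past the limit in either direction, among them Lmo2 (467 CPM in Listeria and 479 CPM in naive members), Adgrg1 (511 and 555 CPM) and Kit (305 and 323 CPM). In Fos-low cells 3 of the 17 were lower in the Listeria library, with a median of -0.25. Flt3 was at 57.6 CPM in Listeria and 93.9 CPM in naive Fos-low cells (-0.71, -0.95 to -0.46), against 89.2 and 89.6 CPM in Fos-high cells. Of 7 measured myeloid priming genes 0 passed the limit, with Plac8, expressed in early myeloid and lymphoid precursors, at 606 and 715 CPM. Of 11 lymphoid priming genes 1 was higher, the surface antigen gene Cd52 at 155 CPM in Listeria and 90.7 CPM in naive members (0.77), and 1 lower, the heavy chain gene Ighm at 41.0 and 97.1 CPM (-1.24). Antibody UMIs were found in 91 of 218 Listeria and 104 of 125 naive members and in 186 of 478 and 493 of 590 Fos-low cells, and the part of free antibody RNA in the Ighm value was not tested. Jchain, an antibody joining chain gene, was at 2.19 CPM in Listeria and 150 CPM in naive members, with 84.4% of the naive UMIs in the 1 member rich in antibody transcripts.

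**Figure D5:**
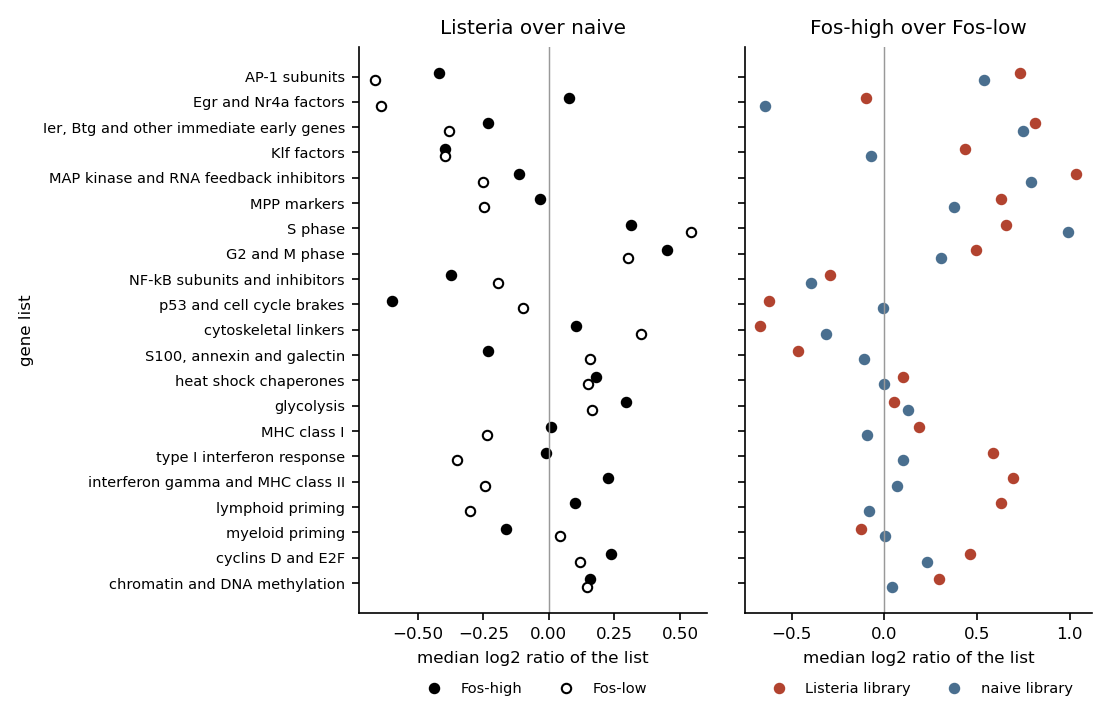
Median log2 ratio of 21 gene lists, over list members with a mean of at least 20 CPM: at left the Listeria over the naive library in Fos-high (black) and Fos-low (white) progenitors, at right Fos-high over Fos-low cells in the Listeria (red) and naive (blue) libraries. In Fos-high cells the p53 and cell cycle brakes have the lowest library median (-0.60) and the G2 and M phase list the highest (0.45); S phase genes and feedback inhibitors are higher in Fos-high than Fos-low cells of both libraries.

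Fos-high cells of the stem cell gate, 220 in the Listeria and 114 in the naive library, were the nearest cells with high Fos. Their median depth was 8043 UMIs in the Listeria and 9682.5 UMIs in the naive library, against 7928.5 and 7348 UMIs in Fos-high progenitors. The stem cell factor gene Hlf, on which the gates were parted, was at 151 CPM in Listeria and 139.7 CPM in naive Fos-high progenitors and at 504 and 381 CPM in the stem cell gate. Fosb, Jun and Klf2 were close in the Listeria library, while Egr1 and Junb were lower in the progenitors. There Fosb was at 3057 CPM in Fos-high progenitors and 3084 CPM in Fos-high stem gate cells, Jun at 5365 and 5138 CPM, and Klf2 at 1731 and 1711 CPM. Egr1 was at 1407 and 1598 CPM and Junb at 1112 and 1257 CPM. In the naive library Fosb was at 2967 CPM in progenitors and 2633 CPM in the stem gate, Jun at 5888 and 4521 CPM, and Klf2 at 1503 and 1269 CPM. Naive Egr1 was at 1334 and 1203 CPM, higher in the progenitors, and naive Junb at 1255 and 1555 CPM. Nr4a1 was lower in the progenitors, at 771 and 1069 CPM in the Listeria and 974 and 1223 CPM in the naive library, and so was Nr4a2, at 88.6 and 135 CPM and at 87.5 and 255 CPM. Plac8 was higher in the progenitors, at 606 CPM against 389 CPM in the Listeria and 715 CPM against 454 CPM in the naive library. The granule enzyme gene Mpo, limited by the gate in both, was at 162 and 54.2 CPM in the Listeria and at 108 and 47.6 CPM in the naive library. Lower Jund in the Listeria library was not limited to the progenitors. It was at 2816 CPM against 4147 CPM in the naive library in the Fos-high stem gate, at 1971 against 3407 CPM in Dntt-positive cells, at 2316 against 3612 CPM in megakaryocyte-lineage cells and at 1416 against 2239 CPM in B-lineage cells. Over all kept cells Jund was at 2016 CPM in the Listeria and 3333 CPM in the naive library, and in granule enzyme cells at 983 and 922 CPM, with overlapping intervals. Cdkn1a was lower in the Fos-high stem gate of the Listeria library as well, at 160.3 CPM against 404 CPM.

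Members also differed in which lineage transcripts were detected in them, by raw UMIs. In the Listeria library 42.7% of members had UMIs of both Flt3 and the granule enzymes, 46.8% of the granule enzymes alone, 4.59% of Flt3 alone and 5.96% of neither. In the naive library these shares were 44.0%, 49.6%, 1.60% and 4.8%. Median depths in that order were 8247, 7954, 6376 and 6736 UMIs in the Listeria library. In the naive library they were 8122, 7339.5, 4181.5 and 6206.5 UMIs. Members with a Cd48 UMI had medians of 8589 UMIs in the Listeria and 7989.5 in the naive library, against 7449 and 7077 without one. The part of depth in these classes was not tested. Fos was at 2361 CPM in Listeria members with a Flt3 UMI (103 cells) and 2428 CPM in those without (115 cells), and at 2263 and 2069.6 CPM in the 57 and 68 naive members of these kinds. With granule enzyme UMIs and without them, Fos was at 2443 (2368 to 2520) and 1958 (1758 to 2175) CPM in Listeria members, and at 2152 (2057 to 2251) and 2372 (1951 to 2856) CPM in naive members, of which 8 had none. With a Cd48 UMI and without one, Fos was at 2217 (2108 to 2330) and 2507 (2415 to 2601) CPM in Listeria members and at 2481 (2298 to 2675) and 2031 (1924 to 2143) CPM in naive members. The Cd48 split thus ran opposite ways in the libraries, with 77 Listeria and 34 naive members that had a Cd48 UMI. These intervals leave out the spread of Fos between cells, so whether the directions differ beyond it was not tested. Since the members were chosen on Fos, these levels are descriptions. For members with a Cd48 UMI and those without, Egr1 was at 1248 and 1507 CPM in the Listeria library and at 1213 and 1384 CPM in the naive library, lower in both with Cd48.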

How the data were processed

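Leg bones were flushed, red blood cells removed by lysis and 10x Genomics 3' droplet libraries prepared, per the labels' protocols. The submitters' processing notes name Cell Ranger 3.0.2 and the mm10 build. The deposited values are raw UMI counts of 31053 genes per barcode, for every barcode of each library, not normalized.

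From these counts, cells were gated by the limits in the report, summed per library and gate, and scaled to CPM with exact Poisson intervals. Intervals of log2 ratios are exact, from a binomial split of both counts, and those of shares are Clopper-Pearson intervals. A gene was counted as higher or lower past 1.5-fold (0.585 on the log2 scale) at a mean of 20 CPM or more. These intervals cover counting error only, and UMIs of 1 library are not replicates of a condition. Gene positions came from GENCODE vM21, with 30934 of 31053 identifiers matched. Software was Python 3.11.15, numpy 2.4.6, scipy 1.17.1, pandas 2.3.3, matplotlib 3.10.9, R 4.3.3, edgeR 4.0.16 (TMM factors) and DESeq2 1.42.0 (median-ratio factors), the last pair as alternatives only. The ratio step was tested on simulated counts with planted changes.

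The genes named for each contrast had the 12 highest or 12 lowest ratios among those that reached 50 CPM in 1 of the compared groups and 100 UMIs in total. Gate, antibody, sex-linked, unnamed, ribosomal protein and mitochondrial genes were left out, as were genes with over 25% of the UMIs of a library in 1 cell. Up to 4 members of each list, all members of the AP-1, Egr and Nr4a, Klf and feedback lists at 20 CPM, the label's markers and the 5 genes most like Fos were added. Members, lists and rules were chosen with earlier results of these data known. The profile of free RNA was summed over barcodes of 1 to 50 UMIs. By haemoglobin, free RNA made up 0.931% of the UMIs of Listeria and 1.88% of naive Fos-high cells. Alternatives covered scaling, weighting of cells, thinning, level minimums, free RNA, gate limits and removal of dividing cells.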

Additional observations from a re-analysis of the deposited data

Results flagged for a closer look

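Hsph1, a heat shock chaperone gene, was higher in Fos-high than Fos-low cells of the Listeria library, with a log2 ratio of 0.70, and lower in those of the naive library, with -1.07, so the libraries moved opposite ways past the fold limit. Ccnd1, a D-type cyclin gene, was higher in the Listeria than the naive library in Fos-high cells, with 0.64, and lower in Fos-low cells, with -0.79. Put the other way, its Fos-high over Fos-low ratio was 0.65 in the Listeria and -0.79 in the naive library. Each rests on 1 library per group, and these differences between the libraries and the classes were not tested.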

How the results depend on the processing

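Of the shares and counts of genes, 89 values under alternatives stayed close to the reported one and 31 moved. The Fos-high share was 26.7% in the Listeria library with Cd34 at 1 or more. It was 37.6% in Listeria and 28.7% in naive progenitors with Fos at 3 or more, and 25.4% and 12.4% with Fos at 8 or more. The naive share was 23.1% per 10000 UMIs and 20.8% after thinning. For Fos-high over Fos-low in both libraries, TMM factors gave 181 higher and 399 lower genes, and median-ratio factors 196 and 368. For Listeria over naive Fos-high cells, median-ratio factors gave 275 and 307, and thinning gave 874 and 572, with 514 higher in Fos-low cells. At a minimum of 5 CPM the higher and lower counts were 1328 and 643 in Fos-high cells, 772 and 644 in Fos-low cells, and 882 and 405 for Fos-high over Fos-low. At 50 CPM they were 111 and 60, 126 and 66, and 115 and 113.

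Further alternatives were chosen after seeing the data. Without cells that had an Mki67 or Top2a UMI, 342 genes were lower in Listeria Fos-high cells. Against Fos-low cells with 1 to 4 Fos UMIs, 122 genes were higher and 100 lower. Leaving out cells with 15 or more antibody or neutrophil UMIs was set after a limit of any UMI had left 17 naive members.

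Reversed values were few. The neutrophil and monocyte list, at -0.80 for Listeria over naive Fos-low cells, had 0.33 with equal weight per cell, 0.20 thinned and 4.24 without Mki67 or Top2a cells. Few cells carried much of it. The Listeria Fos-low cell with the most neutrophil granule UMIs held 1628 and the next 56, and the naive ones held 3660 and 15. For Listeria over naive Fos-high cells, Lmna had 0.24 and Nfkbie 0.0050 thinned, and Top2a -0.60 without Mki67 or Top2a cells. That step leaves no Top2a UMI, so -0.60 is set by the total UMIs of the libraries and is not a Top2a ratio. For Fos-high over Fos-low, Jchain had -0.66 at 8 or more Fos UMIs and Cenpe -0.50 without Mki67 or Top2a cells. The cause was not tested. A planned removal of cells with G2 and M phase UMIs was not run, because 3 Listeria and 5 naive Fos-high cells would remain. No paired analysis was possible because each group is 1 library and the labels give no replicate numbers. Counting error limits genes under 50 CPM most, with a median half-width of 0.70 on the log2 scale.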
